A study of Mus musculus with 5 samples.

Results

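The genes described here are 6 transcription factor genes of neurogenesis, Neurog2, Neurod1, Nhlh1, Pax6, Olig2 and Phox2a, in tissue holding the pharyngeal arches of the mouse embryo. Every probe set annotated to exactly 1 of these genes was taken, which gave 11 of 20380 probe sets, and the 6 genes are 6 of 12393 measured. Neurog2, Nhlh1, Olig2 and Phox2a each had 1 probe set, Neurod1 had 2 and Pax6 had 5. The series has 1 group of 5 wild-type samples, replicates 1 to 5, dissected at E10.5 from embryos of strain 129P2/OlaHsd that had been backcrossed to C57BL/6 for 2 generations. Each sample was a separate tissue isolate, labelled as second heart field-containing tissue, from which 10 ng of total RNA was amplified and read on an Affymetrix Mouse Genome 430A array. There is no second group, so each gene was compared with the background of its own array and with itself in the other samples.

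Neurons of the embryo arise in a relay of transcription factors. Proneural basic helix-loop-helix (bHLH) proteins such as the neurogenins commit a progenitor to the neuronal fate, and they switch on later bHLH factors such as NeuroD1 and Nhlh1 as the cell leaves the cycle. Notch signalling and the Hes and Id proteins hold neighbouring cells in the progenitor state. Near the arches this relay is known from the placodes that form the sensory ganglia of the cranial nerves, from the crest-derived ganglia and from the hindbrain. Phox2a serves neurons of the visceral ganglia, while Pax6 and Olig2 mark progenitor zones of the neural tube.

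Signals are in the scaled units of the deposited table, and a mean is given ± SD with n = 5. The background level of an array was the 95th percentile of the signals of 202 probe sets for gene families of other tissues, such as odorant receptors and hair proteins. It was 17.4, 15.7, 18.1, 22.3 and 23.3 in replicates 1 to 5. A probe set was called above background when the mean excess of its log2 signal over this level passed a one-sided limma test with Benjamini-Hochberg adjusted p below 0.05 over all 20380 probe sets, and a gene was called if any of its probe sets was. The median signal of an array lay between 28.1 and 32.2. As a check of the labelled tissue, 11 of 15 measured arch mesenchyme genes (73.3%), 9 of 11 surface ectoderm genes (81.8%) and 5 of 9 endoderm genes (55.6%) were above background, beside 54.2% of all genes. The counts were 6 of 15 for cardiac muscle (40%), 7 of 12 for erythroid and 7 of 12 for endothelial genes (58.3% each). At a stricter level, described with the first counts of the 6 genes, they were 7, 5, 0, 0, 5 and 1 in the same order, beside 26.2% of all genes. These lists were chosen with earlier results of these data known. Of genes tied to the second heart field, named after their values were seen, Isl1 was above background in all samples, while Nkx2-5 (5.09 ± 3.35) and Hand2 (8.24 ± 6.60) were not called. Replicate 4 stood apart by sex, with Xist, the RNA of the inactive X chromosome, at 916 there and at 26.3 or less in the others, and Eif2s3y at 20.1 against 769 to 968.

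Of the 6 genes, 4 were above background, namely Neurog2, Neurod1, Nhlh1 and Pax6. Olig2 and Phox2a were not. The share of 66.7% stands beside 54.2% of all genes measured. Of the 11 probe sets 6 passed, beside 51.1% of all probe sets. With a stricter level that also took in names beginning like those of caseins and alpha interferons, only Neurod1 of the 6 was called, beside 26.2% of all genes. This stricter level was 108 to 141 in signal, and its families also hold widely expressed casein kinases and interferon receptors. With the families as first given and the level at their 99th percentile, the same 4 genes were called, beside 45.7% of all genes, and 4 probe sets.

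**Figure D1:**
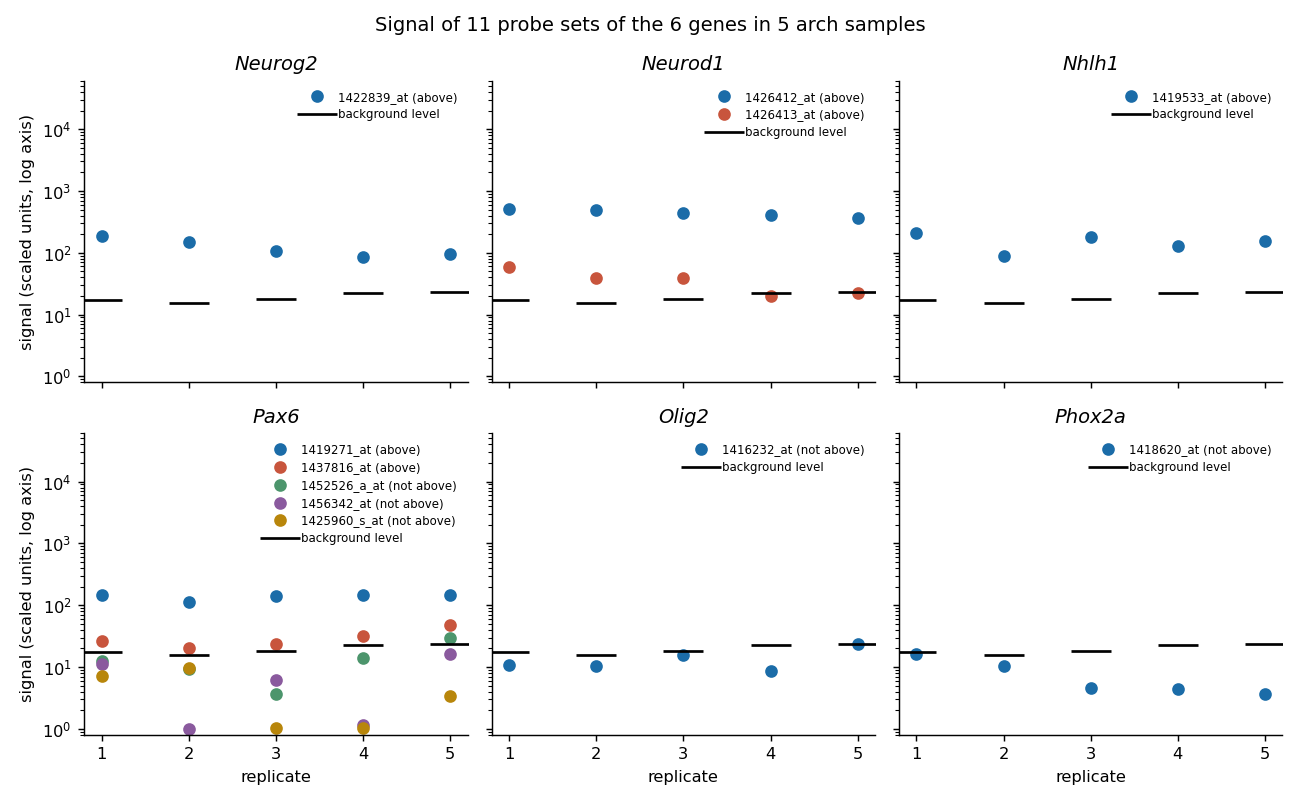
Signal of each of the 11 probe sets (points, log axis, scaled units) in replicates 1 to 5, with the background level of each array as a black bar; signals below 1 are drawn at 1. Neurog2, Nhlh1, the brighter Neurod1 probe set and the brightest Pax6 probe set lie above the bar in all 5 samples, whereas Olig2 and Phox2a lie near or below it.

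Neurog2 encodes the proneural factor at the head of the relay. Its probe set 1422839_at gave 186, 149, 109, 86.9 and 95.4 in replicates 1 to 5, with a mean of 125 ± 41.5. All 5 samples lay above the background level, as they did for 96% of all called genes, and the mean excess was 2.65 ± 0.20 log2 units (SE; adjusted p = 1.03e-13, limma). The sample with most signal, replicate 1, had 2.14 times that of replicate 4, the one with least. Replicates 1 and 2 were above the mean of the samples on the log2 scale, by 0.63 and 0.31, and the other 3 were below it.

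Neurod1, a differentiation factor that acts downstream of the neurogenins, had the most even signal among the 3 bHLH genes that passed. Probe set 1426412_at gave 516, 499, 442, 415 and 367 in replicates 1 to 5, with a mean of 448 ± 60.8 and an excess of 4.54 ± 0.17 (adjusted p = 4.73e-22, limma). Its highest sample was 1.40 times its lowest. The second probe set, 1426413_at, gave 57.9, 39.6, 39.2, 20.2 and 22.6. It was above the level in replicates 1 to 3 and just below it in replicates 4 and 5, and its mean excess of 0.80 ± 0.26 passed (adjusted p = 0.0040, limma). Both probe sets were highest in replicate 1 and lower in replicates 4 and 5 than in the other 3, though the second spanned 2.87-fold. The second probe set was no longer called with the level at the 99th percentile (excess 0.0030) or without the trend and robust options of the fit (adjusted p = 0.0522, limma).

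Nhlh1 (also called Hen1 or Nscl1) encodes a bHLH factor of newly born neurons. Probe set 1419533_at gave 208, 89.3, 181, 128 and 152 in replicates 1 to 5, a mean of 152 ± 46.1, and all 5 samples lay above the level. The excess was 2.93 ± 0.19 (adjusted p = 8.56e-16, limma). Here replicate 2 was the lowest sample, 0.71 log2 units below the mean of the samples (-0.71), and replicate 1 the highest, at 0.52 above it. Neurog2 was above its own mean in replicate 2 (0.31) where Nhlh1 was below, and below its mean in replicate 3 (-0.14) where Nhlh1 was above (0.31).

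bHLH dimers bind E-boxes, hexamers of the form CANNTG, so the 250 bases before the transcription start were read for these genes, from RefSeq on build GRCm38.p6. The windows of Nhlh1 and Neurod1, the later factors of the relay that were above background, are printed 5′ to 3′ on the strand of the gene, with CANNTG in capitals. Nhlh1 lies on the minus strand at chr1:172057597-172057846, and Neurod1 on the minus strand at chr2:79456637-79456886.
Nhlh1: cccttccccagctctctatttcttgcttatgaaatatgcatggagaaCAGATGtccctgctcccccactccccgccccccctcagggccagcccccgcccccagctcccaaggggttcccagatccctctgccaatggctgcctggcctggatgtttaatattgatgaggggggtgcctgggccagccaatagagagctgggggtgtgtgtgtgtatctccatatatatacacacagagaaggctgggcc
Neurod1: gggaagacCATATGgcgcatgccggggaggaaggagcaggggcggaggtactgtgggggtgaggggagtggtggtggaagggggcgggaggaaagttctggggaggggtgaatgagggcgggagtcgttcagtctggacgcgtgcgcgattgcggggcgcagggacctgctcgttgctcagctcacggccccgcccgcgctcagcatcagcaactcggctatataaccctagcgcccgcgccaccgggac
Each window held 1 E-box. That of Nhlh1 read CAGATG and began 203 bases before the start, and that of Neurod1 read CATATG and began 242 bases before it. CANNTG reads the same on both strands, and both hexamers are forms of it. Among 32851 windows of the same length, 66.2% held CANNTG, 14.4% held CAGATG or its reverse complement CATCTG, and 3.46% held CATATG. Of the 7 windows of the 6 genes, 3 held CANNTG, the remaining one being a window of Pax6, which had 2. The windows of Neurog2, Phox2a and Olig2 held no match. That of Neurog2 lies inside a longer model of the gene in the RefSeq gene table, so it may not be the promoter in use.

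Pax6 encodes a paired-box and homeodomain factor of neural progenitors, the eye and the olfactory placode. Its 5 probe sets differed in their calls. Probe set 1419271_at gave 144, 111, 143, 146 and 145 in replicates 1 to 5, with a mean of 138 ± 15.1 and an excess of 2.84 ± 0.17 (adjusted p = 2.37e-16, limma). Of the 4 genes above background it had the smallest spread, and replicate 2 alone stood below the rest. Probe set 1437816_at gave 26.1, 20.2, 23.5, 31.8 and 47.4, above the level in every sample. Its excess was 0.57 ± 0.23 (adjusted p = 0.020, limma), and without replicate 5 it was 0.46 and not called (adjusted p = 0.0883, limma).

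The other 3 Pax6 probe sets were not above background (adjusted p = 1 for each, limma). Probe set 1452526_a_at gave 12.6, 9.22, 3.64, 14.2 and 29.8 and passed the level in replicate 5 alone. Probe set 1456342_at ranged from 0.41 in replicate 2 to 16.5 in replicate 5, and 1425960_s_at from 1.02 in replicate 4 to 9.67 in replicate 2. Of 3637 genes with several probe sets and a call, 51.5% also had a probe set that was not called. With the mean of its 5 probe sets Pax6 was not above background (excess -0.44), while the other 3 genes still were, beside 48% of all genes. With the level at the 99th percentile 1437816_at was not called (excess -0.22) and 1419271_at still was (excess 2.05). The Pax6 call thus rests mainly on 1419271_at.

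Olig2 encodes a bHLH factor of the motor neuron and oligodendrocyte progenitor zone of the neural tube. Probe set 1416232_at gave 10.7, 10.3, 15.6, 8.60 and 23.9 in replicates 1 to 5, a mean of 13.8 ± 6.22. Only replicate 5 reached the level, by a margin of 23.9 against 23.3, and the mean excess was -0.58 ± 0.39 (adjusted p = 1, limma). Phox2a, a homeodomain factor of noradrenergic and visceral neurons, gave 16.5, 10.52, 4.59, 4.43 and 3.61 with probe set 1418620_at, a mean of 7.92 ± 5.52. No sample reached the level, and the excess was -1.53 ± 0.60 (adjusted p = 1, limma). Neither gene was called under any of the 12 alternative settings tried. Each has 1 probe set here, and a probe set that binds poorly also gives such values, so no absence of the transcripts follows.

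The other genes of the relay were then examined from lists. These lists were chosen with earlier results of these data known, so their shares beside that of all genes are descriptions. Of 21 measured genes of the proneural cascade and its partners, 15 (71.4%) were above background, with a median excess of 3.28 log2 units beside 0.88 over all genes. Those with the highest excess were Tcf4, an E-protein partner of proneural factors (2023 ± 239, excess 6.71 ± 0.14), Sox4 (1453 ± 433), Myt1 (1177 ± 249), Ebf3 (1134 ± 159) and Hes6 (837 ± 189), each of which acts in or beside neuronal differentiation. Cbfa2t3 had the lowest excess of the genes called (36.7 ± 5.24, excess 0.93 ± 0.21). Insm1 (17.6 ± 5.04) and Scrt1 (1.27 ± 0.99) were not called. The tissue was measured whole, so these values do not show whether neuronal or other cells gave the signals. At the stricter level 10 of the 21 were called, beside 26.2% of all genes. Relatives of the 6 genes, named after their values were seen, fell on both sides: Neurod4 (290.4 ± 57.6) and Neurog1 (57.6 ± 12.9) were above background, while Neurog3 (7.10 ± 4.30), Neurod2 (7.88 ± 10.0), Neurod6 (6.71 ± 4.43) and Atoh1 (22.7 ± 11.2) were not (adjusted p from 0.899 to 1, limma).

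Of 19 antagonists and Notch pathway genes, 18 (94.7%) were above background, with a median excess of 2.77, and 8 were at the stricter level. They included the receptors Notch2 (1639 ± 362, excess 6.39 ± 0.16) and Notch1 (363 ± 123), the bHLH inhibitor Id2 (778 ± 158), and the Notch targets Nrarp (655 ± 106) and Hey1 (484 ± 49.98). Dll3, a ligand family member transcribed in neuronal precursors, had the lowest excess called (32.7 ± 8.03, excess 0.74 ± 0.23). Hes1, the only member of the list without a call, gave 15.99, 17.1, 37.4, 30.4 and 36.6 (adjusted p = 0.0940, limma). Many of these genes also act in mesenchyme, endothelium and epithelium, and the tissue was measured whole.

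Genes that build neurons gave 26 of 34 (76.5%) above background, with a median excess of 3.66, and 19 were called at the stricter level. Those not called were Map2 (14.3 ± 8.40), Mapt (18.3 ± 6.90), Syt1 (5.00 ± 7.66), Nefh (6.06 ± 3.54), Stmn4, Cntn2, Chga and Prph. The tissue was measured whole, so the values of this list do not show which cells gave the signals. Dpysl3 (1813 ± 389, excess 6.54 ± 0.16), a growth cone protein, the stathmins Stmn3 (1463 ± 411) and Stmn2 (754.5 ± 209), the neurofilament gene Nefl (783 ± 170) and the RNA-binding Elavl2 (702 ± 128) led the list, and Cplx2 (36.7 ± 11.6) had the lowest excess called. In contrast, genes of ganglion identity gave 6 of 25 (24%) above background, and the median excess was -1.0001. The 6 were Isl1 (1387 ± 223), which is also a second heart field gene, Gata2 (81.7 ± 12.8), Six4 (80.7 ± 4.39), Ntrk2 (51.4 ± 9.73), Runx1 (32.2 ± 7.84) and Ntrk3 (32.2 ± 10.6). At the stricter level 1 was called. Genes of peripheral neurons, named after their values were seen, fell on both sides. Isl1, Ntrk2 and Ntrk3 were called, whereas Tlx3 (5.13 ± 4.70), Ret (4.86 ± 4.47) and Dbh (8.31 ± 6.61) of the same list were not. Prph (12.6 ± 8.72) was not called, though 26 of the 34 genes of its own list, that of neuron structure, were. Phox2a, the ganglion factor among the 6 genes, was not called either, and 3 of the 4 genes called are bHLH factors known from neurogenesis in ganglia and neural tube alike.

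Neural tube patterning genes gave 8 of 38 (21.1%) above background and a median excess of -0.31, and 2 were called at the stricter level. They were led by Pax3 (683.3 ± 86.4), Sox2 (266 ± 84.3), Lhx1 (114 ± 46.7), Irx3 (105 ± 45.0) and Nkx6-2 (62.1 ± 14.3), with Foxa2 (28.9 ± 7.32) the lowest called. Pax3 and Sox2 are also known from crest and from pharyngeal epithelium. With the level at the 90th percentile 13 of the 38 were called. Of genes of the ventral tube, where Olig2 and Pax6 are known, Nkx6-2, Irx3 and Foxa2 were called, and Foxa2 also stands in the endoderm list. Olig1 (3.71 ± 2.42), Nkx2-2 (28.2 ± 8.66, adjusted p = 0.0575, limma) and Nkx6-1 (19.7 ± 7.17), named after their values were seen, were not. Shh (10.2 ± 3.43), Nkx2-9 (8.37 ± 5.43), Mnx1 (9.20 ± 4.11), Lhx3, Evx1, En1, Sim1 and Foxn4, also named afterwards, were not called either. Of these, Sim1 (26.9 ± 2.21) lay above the level in every sample and only just missed a call (adjusted p = 0.0510, limma). The ventral genes were picked by hand, so their calls give no share for the ventral tube. For other sites where Pax6 is known, forebrain, eye and olfactory genes gave 4 of 21 (19%), namely Foxd1 (88.1 ± 27.1), Otx2 (61.4 ± 19.8), Mab21l1 (41.6 ± 4.06) and Cryab (30.2 ± 5.12). Pancreas genes gave 2 of 12, Isl1 and Sst (71.8 ± 23.3), with Pdx1 not called (13.0 ± 10.96). At the stricter level these 2 lists had 0 and 1. Crest and glia genes gave 7 of 12 (58.3%), led by Fabp7 (2079.0 ± 515), Erbb3 (129 ± 25.7), Ednrb (104 ± 28.9), Tfap2a (105 ± 32.5) and Egfl8 (37.4 ± 9.64), with Mbp (35.2 ± 11.3) the lowest called. At the stricter level 1 of them was called.

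**Figure D2:**
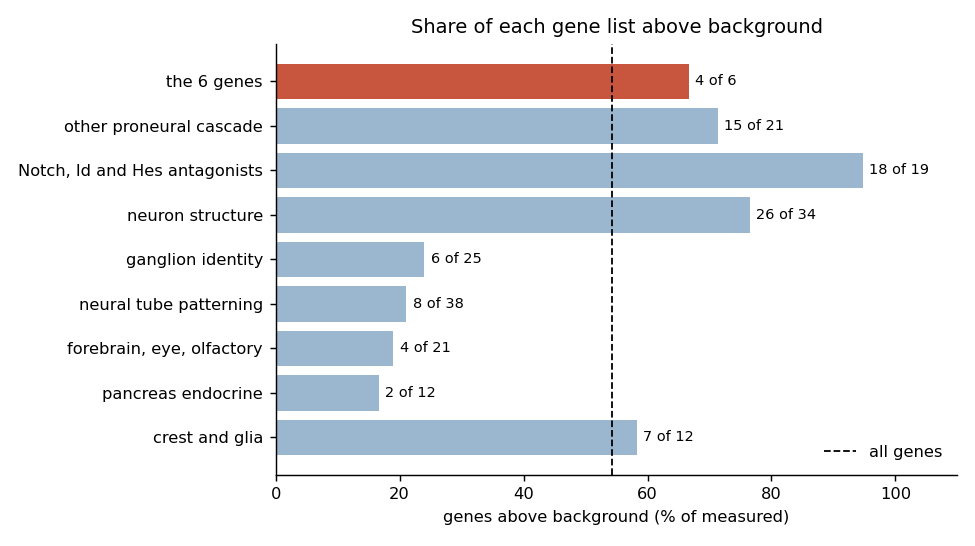
Share of the measured genes of each list that were above background (bars, percent, with counts), beside the share over all genes (dashed line, 54.2%). The proneural, antagonist and neuron lists lie to the right of the line, at 71.4%, 94.7% and 76.5%, and ganglion identity, neural tube patterning, forebrain and pancreas lie to its left, between 16.7% and 24%. The lists were chosen with earlier results of these data known.

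The 6 genes were also compared across samples. The variance of each gene over the 5 samples was tested against limma's trend of variance on signal over the 7421 genes whose brightest probe set had a mean above the level, of which 0.0809% (6 genes) were more variable at adjusted p below 0.05. None of the 4 members in that test was (limma; 0 also at an unadjusted p below 0.05, against 409 of all genes). The variance of Nhlh1 was 2.29 times the trend (adjusted p = 0.971), that of Neurog2 2.03 times (adjusted p = 0.983), that of Neurod1 0.53 times (adjusted p = 0.993) and that of Pax6 0.29 times (adjusted p = 0.998). The test therefore could not tell the differences between samples given above from the spread of genes of like signal. The count of more variable genes was 14 without replicate 2, 21 with no filter on low signal and 0 without the trend and robust options (limma; 325 at an unadjusted p below 0.05), with none of the 6 genes in any of these. Olig2 and Phox2a were too dim to enter the test with the filter.

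The 4 genes shared some of their extreme samples and not others. Replicate 1 was the highest for Neurog2, Neurod1 and Nhlh1, a rank that 21.6% of all called genes share, and replicate 4 was the highest for Pax6 (21.3% of all called genes). The lowest sample was replicate 4 for Neurog2 (23.8%), replicate 5 for Neurod1 (16.5%), and replicate 2 for both Nhlh1 and Pax6 (14.5%). As a measure of likeness, the root mean square difference between the centred log2 signals of 2 genes over the 5 samples was used. It was 0.26 between Neurog2 and Neurod1 and 0.55 between Neurog2 and Nhlh1, beside a median of 0.51 between Neurog2 and 3356 called genes of at least median spread. Between Neurod1 and Pax6 it was 0.29, between Nhlh1 and Pax6 0.32, between Neurod1 and Nhlh1 0.46 and between Neurog2 and Pax6 0.49. Neurod1 varied less than any of the 3356 genes, which by itself lowers its differences. It was thus about as near to Pax6 as to Neurog2.

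**Figure D3:**
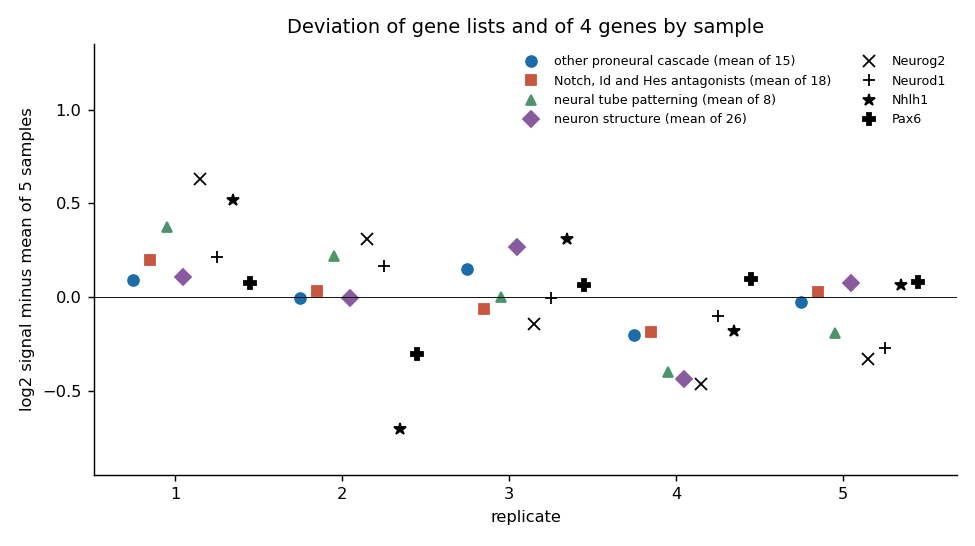
Log2 signal minus the mean of the 5 samples, by replicate, for Neurog2, Neurod1, Nhlh1 and Pax6 (black symbols) and as a mean over the called genes of 4 lists (coloured symbols). The neuron structure and neural tube patterning means are lowest in replicate 4 (-0.44 and -0.40), where Neurog2 is at -0.47, whereas Nhlh1 and Pax6 are lowest in replicate 2.

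Neurog2 and the called genes of several lists were low in replicate 4. Of the 26 called neuron structure genes, 19 had their lowest value in that sample, beside 23.8% of all called genes, and their mean deviation there was -0.44 log2 units. For neural tube patterning genes it was 5 of 8 and -0.40. The called antagonists were lowest there in 8 of 18 and the other proneural genes in 6 of 15, with means of -0.19 and -0.21. Erythroid genes were further below their mean there, at -0.59, with 5 of 7 lowest. In replicates 3 and 5 Neurog2 was also below its mean (-0.14 and -0.33), whereas the neuron structure mean was above 0 (0.27 and 0.07). Neurod1 deviated by -0.10 in replicate 4, Nhlh1 by -0.18 and Pax6 by 0.09. The part of these genes, or of the sex of the sample, in the Neurog2 value was not tested. In a whole tissue, fewer neuronal cells and less RNA per cell cannot be told apart.

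For each of the 4 genes the 3 most alike genes were sought in the same 3356 genes. Those nearest to Neurog2 were Mboat7 (0.049), Elavl3 (0.049) and Sbk1 (0.063). Elavl3 encodes a neuronal RNA-binding protein, and its signals were 389, 300, 231, 173 and 208 in replicates 1 to 5, so its samples had the same order as those of Neurog2. Nearest to Neurod1 were Mpdz (0.11), Macf1 (0.11) and Cdc73 (0.11), nearest to Nhlh1 were Hdac5 (0.13), Myog (0.13) and Rgs3 (0.13), and nearest to Pax6 were Akr1b8 (0.14), Grb10 (0.15) and Yrdc (0.15). The median difference from all genes searched was 0.41 for Neurod1, 0.58 for Nhlh1 and 0.41 for Pax6. A gene with the same value in every sample would lie at 0.18 from Neurod1 and 0.15 from Pax6, and at 0.41 from Neurog2 and 0.42 from Nhlh1. Neurod1 and Pax6 vary less than any gene searched, so their neighbours are hardly closer (Pax6) or somewhat closer (Neurod1) than a flat profile. Among 3356 genes and 5 samples some must lie close, so these are descriptions of the samples.

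**Figure D4:**
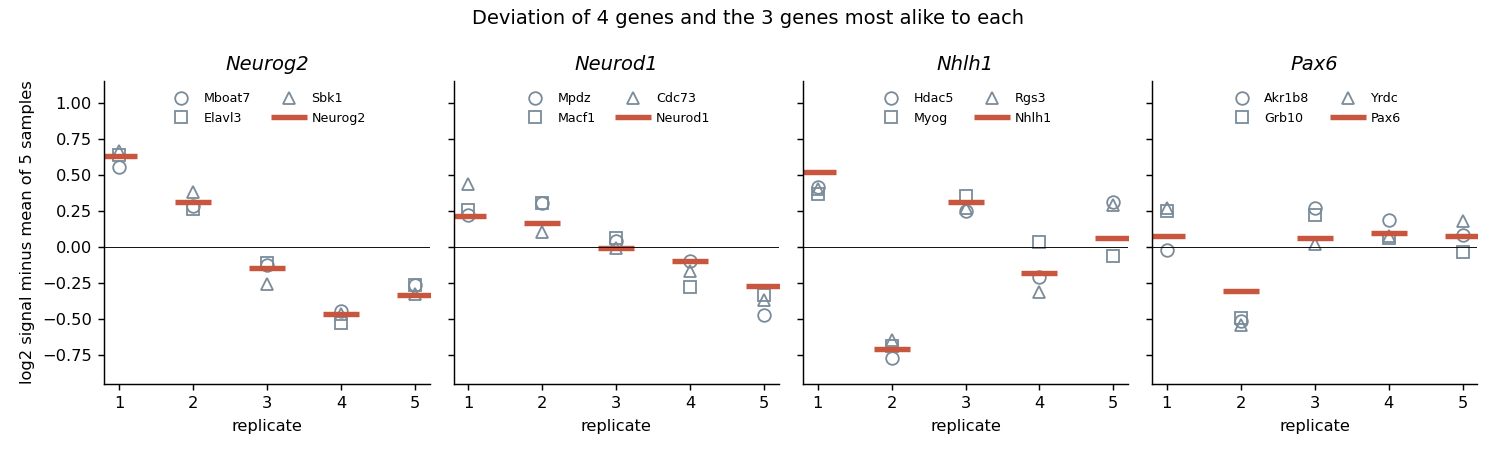
Log2 signal minus the mean of the 5 samples for Neurog2, Neurod1, Nhlh1 and Pax6 (red bars) and for the 3 genes most alike to each (open symbols), by replicate. Neurog2 and its 3 neighbours are highest in replicate 1 and lowest in replicate 4, and Nhlh1 and its 3 neighbours are lowest in replicate 2.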

How the data were processed

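RNA of 5 samples of 1 group was measured on 1-colour arrays. The deposited intensity values were 1 linear signal per probe set and array; the submitters' processing notes name GCOS, Affymetrix's array software, with an algorithm not given in the sources used here, and the authors had scaled the arrays, since the mean trimmed by 2% at each end was 150.1 on each of them.

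Of 22690 probe sets, 64 controls, 691 with several genes and 1555 with none were left out, and symbols of 20351 of the other 20380 were updated through the Entrez identifier with RefSeq. Signals were floored at 1 and put on the log2 scale. The background families held 202 probe sets of 167 genes. Detection was an intercept fit with lmFit and eBayes (limma 3.58.1, R 4.3.3; trend and robust options), one-sided, on log2 signal minus the level of the array, with Benjamini-Hochberg adjustment over all probe sets. The brightest probe set of a gene gave its level and variance. Named are all probe sets of the 6 genes, the 5 genes of highest and the 1 of lowest excess among the called genes of a list (all of them where 5 or fewer were called), genes passing the variance test, and the 3 most alike genes; of the lists of mesenchyme, ectoderm, endoderm, cardiac muscle, erythroid cells and endothelium only counts are given. Several genes, such as Isl1 and Foxa2, stand in more than 1 list. The members and lists were chosen with earlier results of these data known.

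Tested on simulated data of 20380 probe sets, the detection step found 28.4% of those set at an excess of 0.5 log2 units, 98.5% at 1 and 100% at 2, and made 3 false calls. The simulated noise had the same SD for all probe sets, the median of those with a mean above the level, and no floor. These figures therefore do not cover dim probe sets with a wider spread, such as Phox2a (SD 0.94 log2 units) and Olig2 (0.59). On simulated data of 7421 genes the variance step found 65% of genes given 3 times their trend's SD and 98% at 6 times; no other gene was called. The number of arrays limits the precision. Alternatives were the percentile and families behind the level, log2(signal + 16), quantile normalization, the fit options, the mean of the probe sets of a gene, no filter on low signal and leaving out each replicate.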

Additional observations from a re-analysis of the deposited data

Results flagged for a closer look

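Among 26 values (11 probe sets and 15 list means), each tested for a sample far from the other 4, 1 stood out. The brightest Pax6 probe set, 1419271_at, gave 111 in replicate 2 against 143 to 146 in the other samples, and this gap was 0.922 of the whole log2 range. Chance marks about 5% of groups in this way.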

How the results depend on the processing

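With the stricter level from wider background families, 3249 genes, 1 member gene and 1 member probe set were called; the excess of Neurog2 was then -0.012, that of Nhlh1 0.27 and that of Pax6 0.18, and none of these 3 passed. With the mean of the probe sets of a gene, Pax6 was at -0.44. Without the trend and robust options, 0 genes were more variable than the trend (limma; 325 at an unadjusted p below 0.05), with no filter on low signal 21 were, and leaving out 1 replicate gave 4 to 14, the highest without replicate 2. The cause was not tested. Neurod1, Olig2 and Phox2a kept their direction and their side of the threshold under all 12 alternatives. The number of members more variable than the trend was 0 under every alternative. No paired analysis was possible because there is only 1 group. Detection is limited by signal over background, and dim probe sets near the level turned with small changes of it.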
